A study of Mus musculus with 18 samples.

Results

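The comparison between *Lrp2* sh1 and ctrl sh rests on 6 RNA-seq libraries of mouse retinal pigment epithelium (RPE), 3 with each hairpin, out of the 18 libraries in 6 groups of the series. *Lrp2* sh1 is a short hairpin RNA against *Lrp2*, and ctrl sh is its control, a hairpin that the labels name by its target, the bacterial gene LacZ. The 3 uninjected libraries served to check the direction of each change, and the 3 libraries of a second hairpin, *Lrp2* sh2, were set beside *Lrp2* sh1 in the closing section. All of these mice were C57BL/6 and were collected on postnatal day 14, and no genotype other than the strain is given. The hairpins were carried by AAV8 vectors under the *Best1* promoter, which is active in the RPE, and were injected below the retina of newborn mice. The control mice of the main comparison therefore also carried a vector and a hairpin, whereas the uninjected mice had neither. Each library came from both eyes of 1 mouse, pooled, so a library is 1 animal. RPE cells were loosened from the eyecup with papain after removal of the retina, and the labels call the tissue retinal, so RNA of neighboring cells can be present. All 17801 genes that passed the filter on low counts, of 52636 in the table, were tested.

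LRP2, or megalin, is a very large receptor of the LDL receptor family that sits on the apical membrane of absorptive epithelia and takes up lipoproteins, vitamin-binding proteins and signaling molecules. In the developing eye, its loss is known to lead to enlarged eyes and high myopia. The RPE is the pigmented cell layer behind the photoreceptors. It recycles the visual chromophore, moves ions and water, engulfs shed outer segments and secretes factors that reach the choroid and the sclera.

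The ctrl sh libraries held 11814113 to 13696934 counts on genes, the *Lrp2* sh1 libraries 12188538 to 12655566 and the uninjected libraries 8921885 to 10232105. Levels are given as CPM, the read counts of a gene scaled to the TMM-adjusted size of its library, and 3 counts, the limit that a count of 0 allows, correspond to 0.218 to 0.323 CPM in these 9 libraries (counting error only). None of the hairpin libraries compared had more than 10 counts on Y-linked genes, and 1 uninjected library had 2958. The summed level of 16 RPE markers was 4549, 2214 and 2417 CPM in the ctrl sh libraries, 1774, 2707 and 1899 CPM in the *Lrp2* sh1 libraries and 2973, 7936 and 8549.8 CPM in the uninjected libraries. Ctrl sh replicate 1 was thus the highest of the 6 hairpin libraries. *Rpe65*, the isomerase that defines the RPE, had 97.8, 2.58 and 1.77 CPM with ctrl sh, 3.56, 44.1 and 5.19 CPM with *Lrp2* sh1 and 371, 955 and 1115 CPM without injection. It was low in all hairpin libraries and close to absent in ctrl sh replicates 2 and 3 and *Lrp2* sh1 replicates 1 and 3, whereas *Ttr* and *Mitf* stayed well expressed. Markers of fibroblasts and sclera summed to 35620.0, 49358 and 50081 CPM with ctrl sh and 46859.9, 56417 and 53954 CPM with *Lrp2* sh1. In bulk samples, fewer cells of a type and less RNA per cell cannot be told apart.

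*Lrp2*, the targeted gene (ENSMUSG00000027070.14, chromosome 2 from 69424340 to 69586065, minus strand, GRCm38), had 167, 87.7 and 100.2 CPM in the ctrl sh libraries, 29.7, 42.8 and 38.2 CPM in the *Lrp2* sh1 libraries and 55.3, 139 and 149 CPM in the uninjected libraries. All *Lrp2* sh1 libraries lay below all ctrl sh and uninjected libraries, and the first ctrl sh library was the highest of these. The mean fell from 118 ± 42.8 to 36.9 ± 6.65 CPM (SD, n = 3; log2FC −1.68, SE 0.22, adjusted *P* = 0.00328, edgeR), and leaving out each library in turn gave a log2FC of −1.85 to −1.35. Against uninjected libraries, the log2FC was −1.65 (SE 0.31, adjusted *P* = 0.00606, edgeR). *Lrp2* was the only one of 14 tested genes for megalin and its endocytic partners that passed the threshold. *Cubn*, the coreceptor of megalin (log2FC −0.10, SE 0.21, adjusted *P* = 0.852, edgeR), and *Dab2*, the adaptor of its cytoplasmic tail (log2FC −0.05, SE 0.06, adjusted *P* = 0.688, edgeR), did not. Of the 13 genes of the LDL receptor family, 3 rose (3.06% of all genes tested rose at this threshold). *Sorl1*, a sorting receptor, had 101, 79.1 and 70.1 CPM with ctrl sh and 133, 153 and 144 CPM with *Lrp2* sh1, without overlap (log2FC 0.78, SE 0.12, adjusted *P* = 0.00573, edgeR). *Lrp11* (1.09, adjusted *P* = 0.0275, edgeR) and *Lrp12* (0.46, adjusted *P* = 0.0188, edgeR) passed less firmly. *Lrp11* was lost without ctrl sh replicate 3 (adjusted *P* = 0.0778), *Lrp2* sh1 replicate 2 (adjusted *P* = 0.113) and *Lrp2* sh1 replicate 3 (adjusted *P* = 0.0897), and *Lrp12* without ctrl sh replicate 2 (adjusted *P* = 0.0542), ctrl sh replicate 3 (adjusted *P* = 0.0744), *Lrp2* sh1 replicate 2 (adjusted *P* = 0.0754) and *Lrp2* sh1 replicate 3 (adjusted *P* = 0.0738), so that *Sorl1* alone was left when ctrl sh replicate 3 or *Lrp2* sh1 replicate 2 or 3 was dropped. *Srebf2*, the gene of the sterol regulator SREBP2, stood at 115 CPM with ctrl sh and 113 CPM with *Lrp2* sh1 on average (log2FC −0.03, SE 0.07, adjusted *P* = 0.889, edgeR).

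Across all genes, 177 of 17801 (0.994%) were differentially expressed, by the joint criterion of adjusted *P* below 0.05 and a log2FC beyond 1 in either direction (edgeR). Of these, 80 were higher (0.449% of the genes tested) and 97 lower (0.545%) with *Lrp2* sh1, and 159 are annotated as protein coding. The libraries of the groups did not overlap for any of the 177, and over all genes tested 12.9% lay wholly higher and 12.3% wholly lower. By the adjusted *P* alone, 949 genes (5.33%) passed, with 544 higher (3.06%) and 405 lower (2.28%), so the larger side depended on the limit on log2FC. The median log2FC of all genes tested was −0.01. Without ctrl sh replicate 1, the library with the most RPE marker RNA, 221 genes were called. The number fell to 112 and 110 without *Lrp2* sh1 replicates 1 and 3, and the lower genes alone to 46, 54 and 50 without replicates 1, 2 and 3 of *Lrp2* sh1. The plot of fold change against adjusted *P* shows that the largest changes were falls, while the smallest adjusted *P* of all belonged to *Enpp2*.

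**Figure D1:**
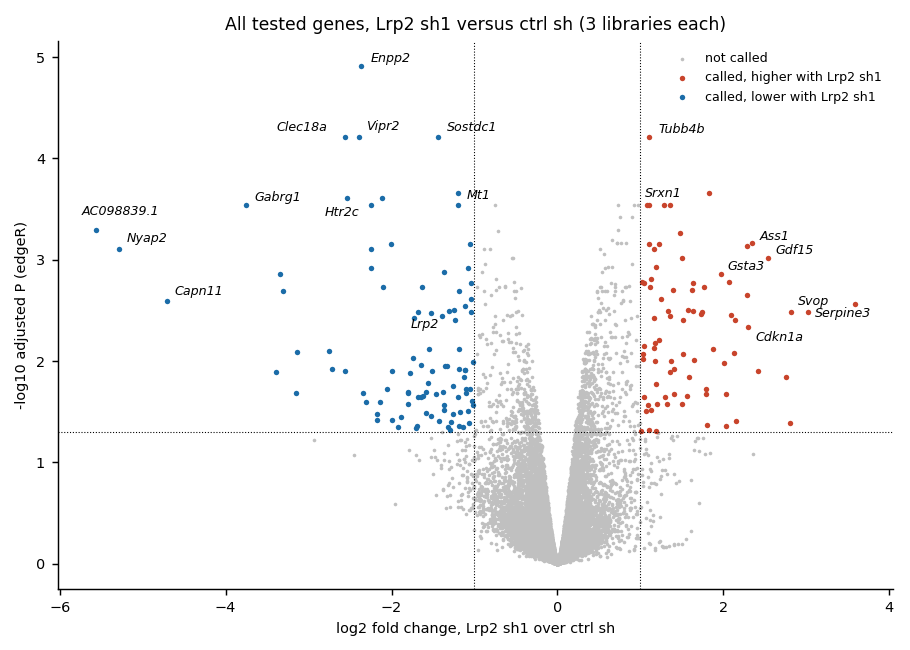
Each point is 1 of the 17801 genes tested, with its log2 fold change of *Lrp2* sh1 over ctrl sh on the x axis and −log10 of its adjusted *P* (edgeR) on the y axis. Dotted lines mark the thresholds, 80 genes are called higher (red) and 97 lower (blue), and *Enpp2* at a log2 fold change of −2.36 lies highest.

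The 10 largest rises among well-expressed genes (average log2 CPM of at least 1) were in *Serpine3*, *Svop*, *Epha8*, *Gdf15*, *Ass1*, *Cdkn1a*, *Wfdc2*, *Chrnb4*, *Pcdh8* and *Tpbgl*. *Serpine3* (chromosome 14 from 62663667 to 62692243, plus strand), which encodes a member of the serpin family, had 50.6, 36.5 and 11.7 CPM with ctrl sh, 195, 353 and 256 CPM with *Lrp2* sh1 and 14.7, 34.7 and 62.8 CPM without injection. The lowest *Lrp2* sh1 library was several times the highest of the other groups (log2FC 3.02, SE 0.40, adjusted *P* = 0.00324, edgeR). Exons of *Ints6* on the opposite strand cover 24.8% of its exon bases, so its count is uncertain to that extent. *Svop*, a vesicle protein related to transporters, had 18.3, 12.7 and 14.8 CPM with *Lrp2* sh1, 0.653, 2.42 and 3.54 CPM with ctrl sh and 0.101, 0.0967 and 0 CPM without injection (log2FC 2.82, SE 0.38, adjusted *P* = 0.00331, edgeR). It was thus nearly silent in uninjected RPE, low with ctrl sh and clearly expressed with *Lrp2* sh1. *Ass1*, the argininosuccinate synthase of arginine synthesis, had 5.3, 8.28 and 7.67 CPM with ctrl sh and 39.5, 25.4 and 43.3 CPM with *Lrp2* sh1 (log2FC 2.35, SE 0.22, adjusted *P* = 0.000687, edgeR). One uninjected library, at 26.6 CPM, lay within the range of *Lrp2* sh1, and the difference from uninjected did not pass the threshold (adjusted *P* = 0.0502, edgeR). *Wfdc2*, a secreted protease inhibitor of epithelia, had 2.97, 1.8 and 1.69 CPM with ctrl sh and 9.17, 11.7 and 11.1 CPM with *Lrp2* sh1 (log2FC 2.29, SE 0.22, adjusted *P* = 0.000736, edgeR). It was itself lower with ctrl sh than without injection (log2FC −1.42, SE 0.33, adjusted *P* = 0.0395, edgeR).

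*Chrnb4*, a subunit of nicotinic acetylcholine receptors, had 10.7, 4.69 and 3.96 CPM with ctrl sh and 29.5, 33.6 and 32.6 CPM with *Lrp2* sh1 (log2FC 2.29, SE 0.28, adjusted *P* = 0.00222, edgeR). The 3 *Lrp2* sh1 values lay close together and above all 3 uninjected values, 5.34, 12.7 and 14.4 CPM. *Tpbgl* rose from 3.44 ± 1.38 to 15.2 ± 4.68 CPM (SD, n = 3; log2FC 2.14, SE 0.30, adjusted *P* = 0.00396, edgeR), and 38.6% of its exon bases are overlapped by *Gm10605*. *Epha8*, an Eph receptor of axon guidance, and *Pcdh8*, a protocadherin, were near the limit of detection in some ctrl sh libraries, at 2.1, 0.312 and 0 and 0.29, 1.87 and 3.2 CPM, against 4.11, 7.52 and 6.29 and 10.3, 7.11 and 6.04 CPM with *Lrp2* sh1. *Epha8* (log2FC 2.81, SE 0.66, adjusted *P* = 0.0408, edgeR) passed without ctrl sh replicate 1 alone among the 6 fits that left out 1 library. It was lost without ctrl sh replicate 2 (adjusted *P* = 0.11), ctrl sh replicate 3 (adjusted *P* = 0.0675), *Lrp2* sh1 replicate 1 (adjusted *P* = 0.0771), *Lrp2* sh1 replicate 2 (adjusted *P* = 0.144) and *Lrp2* sh1 replicate 3 (adjusted *P* = 0.117). *Pcdh8* (log2FC 2.16, SE 0.50, adjusted *P* = 0.0389, edgeR) was lost without ctrl sh replicate 2 (adjusted *P* = 0.0927), *Lrp2* sh1 replicate 1 (adjusted *P* = 0.137), *Lrp2* sh1 replicate 2 (adjusted *P* = 0.0993) and *Lrp2* sh1 replicate 3 (adjusted *P* = 0.0767). Neither passed with DESeq2.

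The 10 largest falls under the same rule were in *AC098839.1*, *Nyap2*, *Capn11*, *Gabrg1*, *Nol4*, *Hs6st3*, *Kcne2*, *Esr2*, *Clec18a* and *Gm3764*. *AC098839.1*, a gene without an assigned name, had 76, 47 and 46 counts with ctrl sh and 0, 1 and 2 counts with *Lrp2* sh1. The ratio of ctrl sh to *Lrp2* sh1 per counted read was 53.5, with a 95% counting interval of 18 to 262 (0.000506 adjusted *P*, edgeR). *Nyap2* (chromosome 1 from 81076950 to 81341764, plus strand), an adaptor of PI3-kinase signaling in neurons, had 51.4, 19 and 20.2 CPM with ctrl sh, 11.7, 25.5 and 22.9 CPM without injection and 0.553, 1.24 and 0.51 CPM with *Lrp2* sh1. Every *Lrp2* sh1 library was many times lower than every ctrl sh and uninjected library (log2FC −5.28 against ctrl sh, SE 0.52, adjusted *P* = 0.000785, edgeR), and the fall stood against uninjected too (log2FC −4.70, SE 0.39, adjusted *P* = 0.000151, edgeR). *Gm3764* behaved likewise, at 14.2, 42.1 and 31.5 CPM without injection, 25.2, 8.2 and 8.68 CPM with ctrl sh and 2.37, 2.98 and 1.79 CPM with *Lrp2* sh1 (log2FC −2.56, SE 0.45, adjusted *P* = 0.0126, edgeR), though it was lost without *Lrp2* sh1 replicate 1 (adjusted *P* = 0.0608) and *Lrp2* sh1 replicate 3 (adjusted *P* = 0.0725).

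In contrast, among the uninjected, ctrl sh and *Lrp2* sh1 groups, *Capn11*, *Nol4*, *Hs6st3* and *Esr2* were expressed mainly with ctrl sh. With *Lrp2* sh2, *Nol4*, *Hs6st3* and *Capn11* averaged 3.07, 2.09 and 0.383 CPM, beside 3.72, 4.68 and 5.93 CPM with ctrl sh. *Capn11*, a calpain protease, had 0.605, 0.29 and 0.431 CPM without injection, 4.43, 9.92 and 3.46 CPM with ctrl sh and 0.395, 0.165 and 0.085 CPM with *Lrp2* sh1 (log2FC −4.70, SE 0.59, adjusted *P* = 0.00254, edgeR). *Esr2*, the estrogen receptor beta, had 0.302, 0.29 and 0.431, 2.1, 2.81 and 5.06 and 0.316, 0.331 and 0.85 CPM in the same order (log2FC −2.71, SE 0.47, adjusted *P* = 0.012, edgeR), and was lost without *Lrp2* sh1 replicate 1 (adjusted *P* = 0.0609) and *Lrp2* sh1 replicate 2 (adjusted *P* = 0.0608). Ctrl sh exceeded uninjected in each of the 4 (adjusted *P* = 0.0105 for *Capn11*, 0.0207 for *Nol4*, 0.00829 for *Hs6st3* and 0.0116 for *Esr2*, edgeR). *Kcne2*, a potassium channel subunit of secretory epithelia, had 0.706, 1.93 and 1.4 CPM without injection, 6.53, 2.66 and 2.61 CPM with ctrl sh and 0.237, 0.661 and 0.425 CPM with *Lrp2* sh1 (log2FC −3.14, SE 0.50, adjusted *P* = 0.00818, edgeR). *Clec18a*, a lectin, had 26.6, 22.3 and 29.6 CPM with ctrl sh against 3.71, 5.04 and 4.51 CPM with *Lrp2* sh1 and 2.02, 10.5 and 5.5 CPM without injection (log2FC −2.56, SE 0.15, adjusted *P* = 6.12e-05, edgeR). All of the rises except *Ass1* also passed against the uninjected libraries. Of the falls, *Nyap2* and *Gm3764* passed as lower than uninjected *Clec18a* did not pass, *Gabrg1* was higher, and 6 were too low in both of these groups to be tested. The heat map of these 20 genes shows both patterns.

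**Figure D2:**
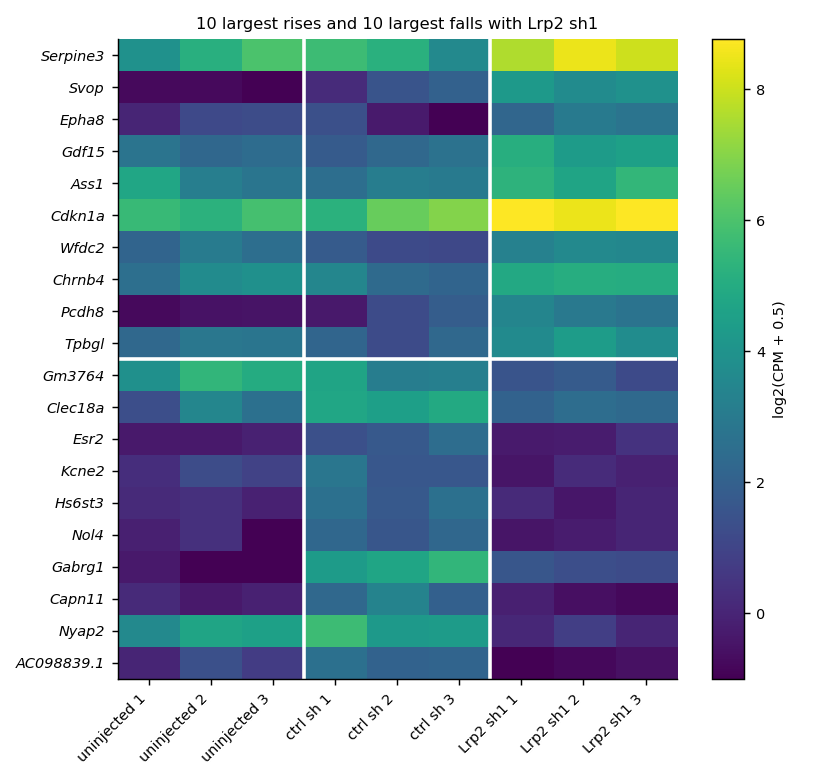
Rows are the 10 genes with the largest rise (above the white line) and the 10 with the largest fall, columns are libraries of the uninjected, ctrl sh and *Lrp2* sh1 groups, and color is log2(CPM + 0.5). *Nyap2* and *Gm3764* are dark in the *Lrp2* sh1 columns alone, while *Gabrg1*, *Esr2*, *Nol4* and *Hs6st3* are brightest in the ctrl sh columns.

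The smallest adjusted *P*-values belonged to other genes, which were chosen after their values were seen. *Enpp2*, which encodes autotaxin, the secreted enzyme that makes lysophosphatidic acid, had 1392, 1248 and 1643 CPM with ctrl sh, 279, 275 and 278 CPM with *Lrp2* sh1 and 283, 759.5 and 985 CPM without injection. The *Lrp2* sh1 libraries were nearly identical and lay far below ctrl sh (log2FC −2.36, SE 0.10, adjusted *P* = 1.21e-05, edgeR), and the first uninjected library was as low. *Vipr2*, a receptor for vasoactive intestinal peptide, had 27.2, 31.2 and 37.1 CPM with ctrl sh, 5.69, 5.95 and 6.46 CPM with *Lrp2* sh1 and 10.8, 16.6 and 14.4 CPM without injection (log2FC −2.40, SE 0.14, adjusted *P* = 6.12e-05, edgeR). It fell below both control groups (log2FC −1.22 against uninjected, SE 0.17, adjusted *P* = 0.00173, edgeR). *Sostdc1*, a secreted antagonist of BMP and Wnt signaling, had 144, 147 and 172 CPM with ctrl sh, 59.6, 52.7 and 58.8 CPM with *Lrp2* sh1 and 46.1, 68.4 and 73.2 CPM without injection (log2FC −1.44, SE 0.08, adjusted *P* = 6.12e-05, edgeR). Here ctrl sh was the group that stood apart, and *Lrp2* sh1 did not differ detectably from uninjected (log2FC −0.15, SE 0.15, adjusted *P* = 0.496, edgeR). *Tubb4b*, a beta tubulin, had 100.05, 104 and 111 CPM with ctrl sh, 232, 214 and 234 CPM with *Lrp2* sh1 and 82.8, 101 and 105 CPM without injection (log2FC 1.11, SE 0.07, adjusted *P* = 6.12e-05, edgeR). *Tuba4a*, an alpha tubulin, rose in the same way (log2FC 1.28, SE 0.10, adjusted *P* = 0.000286, edgeR), though 37.3% of its exon bases are overlapped by *Stk16*. Of 9 tested alpha and beta tubulin genes, 4 rose and none fell (background 3.06% higher and 2.28% lower). *E2f1*, a transcription factor of the cell cycle, had 12.3, 12.7 and 12.6 CPM with ctrl sh and 26.9, 25.7 and 28.1 CPM with *Lrp2* sh1 (log2FC 1.10, SE 0.09, adjusted *P* = 0.000286, edgeR), while none of the 27 genes of the cell cycle list passed in either direction.

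The plot of levels by library shows genes of each kind, those that rose or fell against both control groups and those for which ctrl sh stood apart.

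**Figure D3:**
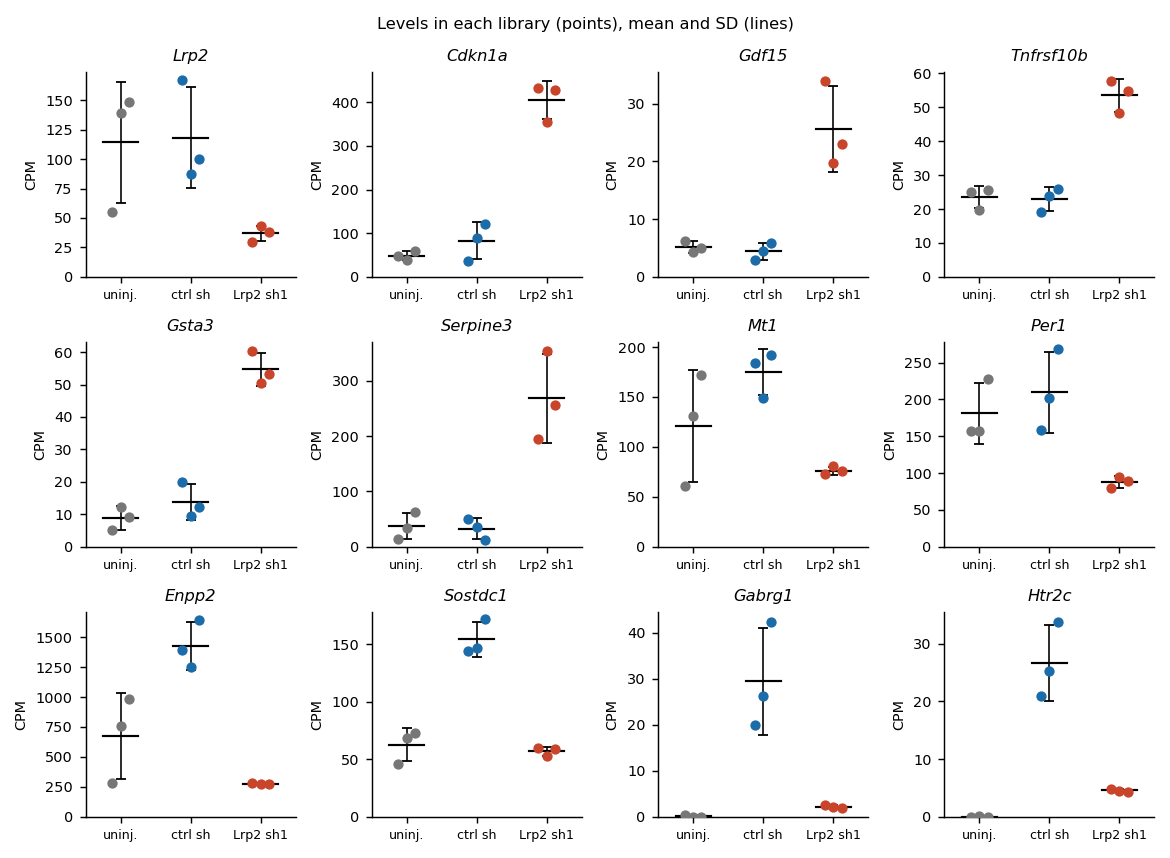
Each panel shows the CPM of 1 gene in the 3 libraries of the uninjected, ctrl sh and *Lrp2* sh1 groups, with the mean and SD as lines and the y axis starting at 0. *Lrp2* and *Per1* are lowest and *Cdkn1a*, *Gdf15*, *Tnfrsf10b*, *Gsta3* and *Serpine3* highest with *Lrp2* sh1, while *Sostdc1*, *Gabrg1* and *Htr2c* are highest with ctrl sh.

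Several genes that p53 activates were higher with *Lrp2* sh1. Of 22 tested p53 target genes, 9 rose and none fell (background 3.06% higher), with a median log2FC of 0.44, and the count was 6 to 10 with each library left out in turn. *Cdkn1a*, which encodes the cell cycle inhibitor p21, had 36.9, 89.6 and 121 CPM with ctrl sh, 433, 355 and 428 CPM with *Lrp2* sh1 and 47.2, 38 and 59 CPM without injection. The *Lrp2* sh1 libraries lay several times above most of the others (log2FC 2.30, SE 0.33, adjusted *P* = 0.0046, edgeR). *Ccng1*, a cyclin induced by p53, had 88, 139 and 163 CPM with ctrl sh, 369, 308 and 324 CPM with *Lrp2* sh1 and 47.8, 57.3 and 52.1 CPM without injection (log2FC 1.36, SE 0.19, adjusted *P* = 0.00356, edgeR). *Tnfrsf10b*, a death receptor, had 19.2, 23.7 and 25.9 and 57.7, 48.2 and 54.9 CPM (log2FC 1.23, SE 0.12, adjusted *P* = 0.000696, edgeR), and *Psrc1*, a spindle protein, 4.14, 4.61 and 5.82 and 17.1, 11.7 and 16.5 CPM, with ctrl sh and *Lrp2* sh1, respectively (log2FC 1.64, SE 0.19, adjusted *P* = 0.00171, edgeR). All of these genes had their lowest ctrl sh value in replicate 1 and no overlap between the hairpins. *Zmat3*, an RNA-binding protein, rose from a mean of 77.8 to 138 CPM (log2FC 0.82, SE 0.08, adjusted *P* = 0.000687, edgeR). *Mdm2*, the ubiquitin ligase that limits p53, rose less (log2FC 0.52, SE 0.09, adjusted *P* = 0.0126, edgeR). *Bax* (0.25) and *Bbc3* (0.36), which promote cell death, did not pass (adjusted *P* = 0.381 and 0.325, edgeR). Against uninjected libraries, 13 of the 22 were higher and 3 lower with *Lrp2* sh1 (background 12.4% and 12%). For ctrl sh against the same uninjected libraries, 4 were higher and 3 lower (background 3.13% and 3.37%).

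*Gdf15*, a stress-induced cytokine that belongs to both the p53 and the integrated stress response lists, had 2.97, 4.45 and 5.9 CPM with ctrl sh, 34, 19.8 and 23 CPM with *Lrp2* sh1 and 6.25, 4.26 and 4.96 CPM without injection (log2FC 2.54, SE 0.26, adjusted *P* = 0.000957, edgeR). Of 25 genes of the integrated stress response, the program that ATF4 controls when protein synthesis is restrained, 4 rose (background 3.06%) and none fell, with a median log2FC of 0.18. The others were *Trib3*, a pseudokinase (log2FC 1.18, SE 0.20, adjusted *P* = 0.0101, edgeR), and the amino acid transporters *Slc7a5* (log2FC 0.53, SE 0.09, adjusted *P* = 0.0106, edgeR) and *Slc7a1* (log2FC 0.39, SE 0.08, adjusted *P* = 0.0275, edgeR), the last lost without ctrl sh replicate 3 (adjusted *P* = 0.108), *Lrp2* sh1 replicate 1 (adjusted *P* = 0.112) and *Lrp2* sh1 replicate 3 (adjusted *P* = 0.111). *Ddit3* (0.05), *Atf4* (0.05) and *Asns* (0.28), which are central to the program, did not pass (adjusted *P* = 0.884, 0.822 and 0.567, edgeR). Against uninjected libraries, 7 of the 25 were higher and 8 lower with *Lrp2* sh1 (background 12.4% and 12%), with a median log2FC of −0.20. For ctrl sh against uninjected, 1 was higher and 5 were lower (background 3.13% and 3.37%).

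NRF2 drives genes of glutathione synthesis and detoxification, and of its 22 listed targets 7 rose and 2 fell (background 3.06% and 2.28%), with a median log2FC of 0.19. *Gsta3*, a glutathione S-transferase, had 20.1, 9.37 and 12.3 CPM with ctrl sh, 60.4, 50.3 and 53.3 CPM with *Lrp2* sh1 and 5.04, 12.4 and 9.16 CPM without injection (log2FC 1.97, SE 0.22, adjusted *P* = 0.00137, edgeR). *Srxn1*, which repairs peroxiredoxins, had 43.3, 47.4 and 51.3 CPM with ctrl sh, 97.3, 86.4 and 93.4 CPM with *Lrp2* sh1 and 20.5, 19.2 and 20.8 CPM without injection (log2FC 0.97, SE 0.08, adjusted *P* = 0.000286, edgeR). Its level was lowest without injection, intermediate with ctrl sh and highest with *Lrp2* sh1, without overlap between the groups. *Gclm*, a subunit of the enzyme that starts glutathione synthesis, had 55.2, 49.4 and 54.2 CPM with ctrl sh and 92.1, 86.5 and 84.6 CPM with *Lrp2* sh1 (log2FC 0.73, SE 0.06, adjusted *P* = 0.000512, edgeR). *Gsr*, *Nqo1*, *Txnrd1* and *Pgd* rose by 0.24 to 0.45 on the log2 scale. *Fth1*, the ferritin heavy chain, and *Gsta4* were the 2 that fell (−0.34 and −0.49, adjusted *P* = 0.0159 and 0.0246, edgeR). Both were lost without ctrl sh replicate 2 or 3 or *Lrp2* sh1 replicate 1 or 2. *Slc7a11*, the cystine transporter, had 26.6, 10.4 and 4.3 CPM with ctrl sh and 6.8, 3.55 and 5.61 CPM with *Lrp2* sh1, overlapping and not past the threshold (log2FC −1.38, SE 0.53, adjusted *P* = 0.187, edgeR). The number that rose was 8 without ctrl sh replicate 1, 3 without ctrl sh replicate 2, 4 without ctrl sh replicate 3 and 3 without any one *Lrp2* sh1 library. *Gsta3*, *Srxn1* and *Gclm* passed in all of these fits.

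Several lysosomal genes rose by small amounts. Of 30 tested, 9 rose (background 3.06%) and none fell, with a median log2FC of 0.13. *Scarb2*, a lysosomal membrane protein, had 250.3, 283 and 273 CPM with ctrl sh and 402, 365 and 385 CPM with *Lrp2* sh1 (log2FC 0.52, SE 0.07, adjusted *P* = 0.00324, edgeR). *Ctsd*, the protease cathepsin D, had 1099.8, 982 and 1109 CPM with ctrl sh, 1426, 1484 and 1535 CPM with *Lrp2* sh1 and 247, 473 and 470.3 CPM without injection (log2FC 0.48, SE 0.07, adjusted *P* = 0.00598, edgeR). Ctrl sh itself was well above uninjected (log2FC 1.40, SE 0.22, adjusted *P* = 0.0134, edgeR), and 34.4% of the exon bases of *Ctsd* are overlapped by *Gm49369*. *Atp6v1h*, *Atp6v1b2* and *Atp6v0d1*, subunits of the proton pump, rose by 0.43, 0.36 and 0.27 on the log2 scale. *Gaa* and *Tpp1*, enzymes that break down glycogen and peptides, also rose. The count was 10 without ctrl sh replicate 1, 5 and 4 without ctrl sh replicates 2 and 3, and 3, 2 and 3 without *Lrp2* sh1 replicates 1, 2 and 3, respectively. *Ctsd* did not pass with all 18 libraries in one fit. The plot of 10 gene lists places these shifts beside the much wider ones of the p53 and glucocorticoid lists.

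**Figure D4:**
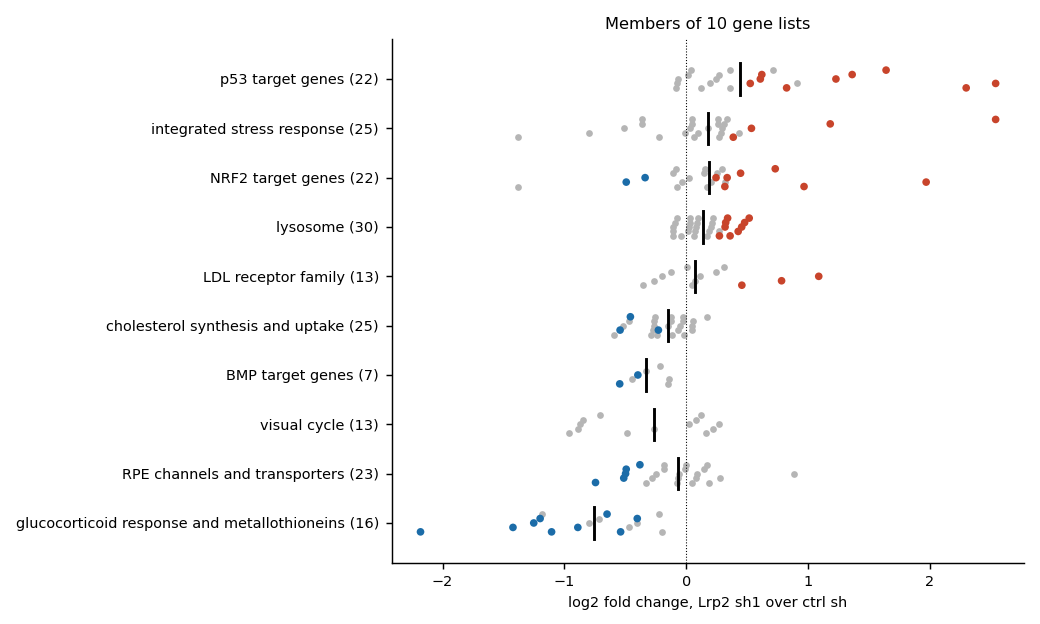
Each point is a tested member of 1 of 10 gene lists (number tested in parentheses), placed by its log2 fold change of *Lrp2* sh1 over ctrl sh, with members at an adjusted *P* under 0.05 in red (higher) or blue (lower), the others in gray, and the list median as a bar. *Gdf15*, in the p53 and integrated stress response lists, lies furthest to the right and a glucocorticoid-responsive gene, *Zbtb16*, furthest to the left, and the medians of the p53 and glucocorticoid lists are 0.44 and −0.76.

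Genes that glucocorticoids induce, together with the metallothioneins, which bind zinc and copper, were lower with *Lrp2* sh1. Of 16 tested, 9 fell and none rose (background 2.28% lower), all 16 had a negative log2FC, and the median was −0.76. *Per1*, a clock gene with a strong response to glucocorticoids, had 159, 201 and 269 CPM with ctrl sh, 79.7, 95.1 and 89.1 CPM with *Lrp2* sh1 and 158, 157 and 228 CPM without injection (log2FC −1.25, SE 0.16, adjusted *P* = 0.00316, edgeR). *Sgk1*, a kinase that regulates sodium transport, had 587, 492 and 619 CPM with ctrl sh, 312, 315 and 288 CPM with *Lrp2* sh1 and 343, 567 and 587 CPM without injection (log2FC −0.89, SE 0.09, adjusted *P* = 0.000785, edgeR). *Tsc22d3*, which encodes GILZ, had 129, 201 and 278 CPM with ctrl sh and 88.2, 95.6 and 98.5 CPM with *Lrp2* sh1 (log2FC −1.11, SE 0.22, adjusted *P* = 0.0208, edgeR). *Zbtb16*, a transcription factor, had 13.9, 38.9 and 67.9 CPM with ctrl sh and 7.82, 12.4 and 6.29 CPM with *Lrp2* sh1 (log2FC −2.18, SE 0.49, adjusted *P* = 0.0332, edgeR). The *Lrp2* sh1 values were tight and low, and the ctrl sh values were spread widely, with ctrl sh replicate 1 the lowest for all of *Per1*, *Tsc22d3*, *Zbtb16* and *Fkbp5*. *Fkbp5*, a classical target that had 18.1, 45.7 and 65.5 CPM with ctrl sh and 17.1, 18.9 and 20.7 CPM with *Lrp2* sh1, overlapped and did not pass (log2FC −1.19, SE 0.36, adjusted *P* = 0.0956, edgeR). Without ctrl sh replicate 1, 13 of the 16 fell, and 6, 6, 4, 5 and 5 fell without ctrl sh replicates 2 and 3 and *Lrp2* sh1 replicates 1, 2 and 3. Against uninjected libraries, 11 of the 16 were lower with *Lrp2* sh1 (background 12%). For ctrl sh against uninjected, 1 was higher and 2 were lower (background 3.13% and 3.37%). *Per1* was the only one of 19 clock genes that fell, and *Bhlhe40* the only one that rose (0.26, adjusted *P* = 0.0341, edgeR). *Bhlhe40* was lost without ctrl sh replicate 2 (adjusted *P* = 0.0941), ctrl sh replicate 3 (adjusted *P* = 0.0775), *Lrp2* sh1 replicate 1 (adjusted *P* = 0.132), *Lrp2* sh1 replicate 2 (adjusted *P* = 0.0595) and *Lrp2* sh1 replicate 3 (adjusted *P* = 0.117).

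*Mt1*, *Mt2* and *Mt3* lie near each other on chromosome 8, and all 3 fell. *Mt1* (chromosome 8 from 94179082 to 94180327, plus strand) had 184, 149 and 192 CPM with ctrl sh, 72.8, 80.8 and 75.4 CPM with *Lrp2* sh1 and 60.6, 131 and 172 CPM without injection (log2FC −1.20, SE 0.09, adjusted *P* = 0.000286, edgeR). *Mt3* had 48.7, 45.8 and 52.6 CPM with ctrl sh and 34.8, 30.7 and 35.7 CPM with *Lrp2* sh1 (log2FC −0.54, SE 0.08, adjusted *P* = 0.00742, edgeR), and did not pass with all 18 libraries in one fit. *Mt2* was scarce, at 2.83, 1.8 and 3.37 CPM with ctrl sh and 0.869, 1.32 and 0.765 CPM with *Lrp2* sh1 (log2FC −1.42, SE 0.33, adjusted *P* = 0.0394, edgeR). Metallothionein genes are classically switched on through metal response elements, and the promoters of *Mt1* and *Mt2* are shown because these genes moved together. The sequences run from 250 bases before to 50 bases after the RefSeq start (GRCm38.p6), 5′ to 3′ on the plus strand, chr8:94178839-94179138 for *Mt1* and chr8:94172368-94172667 for *Mt2*, and capitals mark TGCACNC or TGCGCNC, the core of the element, on either strand.

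Mt1: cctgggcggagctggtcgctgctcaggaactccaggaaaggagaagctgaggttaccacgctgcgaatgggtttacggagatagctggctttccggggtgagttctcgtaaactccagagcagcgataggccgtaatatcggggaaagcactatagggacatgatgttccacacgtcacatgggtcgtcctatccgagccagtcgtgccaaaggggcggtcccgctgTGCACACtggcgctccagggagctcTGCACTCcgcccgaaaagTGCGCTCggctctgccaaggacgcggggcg
Mt2: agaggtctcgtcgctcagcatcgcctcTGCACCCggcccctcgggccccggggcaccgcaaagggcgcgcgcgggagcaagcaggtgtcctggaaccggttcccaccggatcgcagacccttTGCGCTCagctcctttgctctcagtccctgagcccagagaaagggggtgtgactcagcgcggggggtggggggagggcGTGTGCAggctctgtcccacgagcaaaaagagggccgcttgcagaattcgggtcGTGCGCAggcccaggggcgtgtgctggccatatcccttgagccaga

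The core was found 3 times in the *Mt1* window, 4 times in the *Mt2* window and once in that of *Mt3*. Of 32851 promoter windows of the same length, 25.7% hold at least 1 match and 1.97% at least 3. The palindromic consensus of the glucocorticoid response element was also searched in the windows of this list and was found once in the *Mt1* window, once in 1 of 6 windows of *Sgk1* and in no other, against 0.475% of all windows. A match of letters does not show that a site is used.

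Several receptor genes of neurotransmitters were higher with ctrl sh than with *Lrp2* sh1 and without injection, most of them chosen after their values were seen. *Gabrg1* (chromosome 5 from 70751047 to 70842617, minus strand), a subunit of GABA-A receptors, had 274, 335 and 503 counts with ctrl sh, 32, 25 and 22 counts with *Lrp2* sh1 and 3, 0 and 0 counts without injection. On the CPM scale, ctrl sh had 19.9, 26.2 and 42.4 and *Lrp2* sh1 2.53, 2.07 and 1.87 (log2FC −3.76, SE 0.31, adjusted *P* = 0.000286, edgeR). *Gabra2*, the neighboring gene on chromosome 5 (chromosome 5 from 70957597 to 71095849, minus strand), had 12.9, 17.4 and 25.1 CPM with ctrl sh and 3.87, 3.55 and 4.17 CPM with *Lrp2* sh1 (log2FC −2.25, SE 0.24, adjusted *P* = 0.0012, edgeR), and 1 count in all uninjected libraries together. *Htr2c*, a serotonin receptor on the X chromosome, had 20.9, 25.3 and 33.8 CPM with ctrl sh and 4.82, 4.55 and 4.34 CPM with *Lrp2* sh1 (log2FC −2.54, SE 0.19, adjusted *P* = 0.000247, edgeR), and again 1 count in the uninjected libraries. All 3 genes were thus next to silent without injection, high with ctrl sh and intermediate with *Lrp2* sh1, without overlap. *Lrp2* sh1 remained above uninjected in each (adjusted *P* = 0.00266 for *Gabrg1*, 0.000166 for *Gabra2* and 0.000127 for *Htr2c*, edgeR). *Chrm1*, a muscarinic receptor, had 15.5, 11 and 12.5 CPM with ctrl sh, 3.08, 2.31 and 2.81 CPM with *Lrp2* sh1 and 3.73, 8.22 and 3.45 CPM without injection (log2FC −2.24, SE 0.18, adjusted *P* = 0.000286, edgeR). Within families chosen by symbol, 2 of 8 tested GABA-A receptor genes, 1 of 4 serotonin receptor genes and 1 of 3 muscarinic receptor genes fell and none rose. Of 6 nicotinic receptor genes 1 rose (*Chrnb4*), and of 18 glutamate receptor genes 4 fell and 1 rose (background 3.06% higher and 2.28% lower). Of 28 genes in the list of synaptic vesicles and release, 2 rose and 3 fell. The falls included *Nyap2*, the signaling adaptor described above, which this list also counts, and *Sv2a*, a vesicle glycoprotein. *Sv2a* had 63.3, 42 and 47.4 CPM with ctrl sh, 20.8, 24.5 and 25.1 CPM with *Lrp2* sh1 and 13, 20.1 and 22.5 CPM without injection (log2FC −1.12, SE 0.14, adjusted *P* = 0.00287, edgeR).

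Signals that the RPE sends and receives changed in single members. Among 7 BMP target genes, all of which had a negative log2FC (median −0.33), *Smad6* and *Smad9* fell (background 2.28% lower). *Smad6*, an inhibitory Smad, had 67.5, 63.3 and 60.2 CPM with ctrl sh, 44.6, 46.2 and 40 CPM with *Lrp2* sh1 and 92.6, 90.5 and 63.8 CPM without injection (log2FC −0.55, SE 0.07, adjusted *P* = 0.00348, edgeR). The log2FC was −0.40 for *Smad9*, −0.21 for *Smad7*, −0.33 for *Id1*, −0.15 for *Id2*, −0.15 for *Id3* and −0.45 for *Id4*, and *Smad9* (adjusted *P* = 0.0377, edgeR) passed with no library left out (adjusted *P* 0.0584 to 0.148 without 1 of them). Against uninjected libraries, 5 of the 7 were lower with *Lrp2* sh1 (background 12%) and 2 with ctrl sh (background 3.37%). The study singled these genes out on these same libraries, so their direction is not independent evidence. Of 5 BMP ligands, *Bmp2* fell (log2FC −0.37, SE 0.08, adjusted *P* = 0.0325, edgeR), against the same background of 2.28%. It had 43.7, 36.8 and 41.6 CPM with ctrl sh, 32.3, 31.4 and 31 CPM with *Lrp2* sh1 and 27.1, 53.7 and 48.1 CPM without injection, and passed in 1 of the 6 fits (adjusted *P* 0.0241 to 0.117). *Bmp2* with *Lrp2* sh1 did not pass against uninjected (log2FC −0.46, SE 0.20, adjusted *P* = 0.128, edgeR). The other ligands had log2FC of 0.38 (*Bmp4*), −0.27 (*Bmp6*), −0.16 (*Bmp7*) and −0.38 (*Gdf11*), with adjusted *P* of 0.224 or more (edgeR).

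In the Wnt pathway, 4 of 29 genes rose and 6 fell (background 3.06% and 2.28%), with a median log2FC of −0.19. *Sfrp1*, a secreted Wnt inhibitor, had 296, 225 and 286 CPM with ctrl sh, 139, 127 and 122 CPM with *Lrp2* sh1 and 125, 163 and 137 CPM without injection (log2FC −1.05, SE 0.10, adjusted *P* = 0.000696, edgeR), so that ctrl sh was the higher group. *Sfrp2* was likewise highest with ctrl sh, ahead of *Lrp2* sh1 and uninjected (120.05, 74.1 and 69.6 CPM on average; log2FC −0.69, SE 0.12, adjusted *P* = 0.0133, edgeR), and was lost without *Lrp2* sh1 replicate 1 (adjusted *P* = 0.0633), *Lrp2* sh1 replicate 2 (adjusted *P* = 0.0569) and *Lrp2* sh1 replicate 3 (adjusted *P* = 0.0624). *Wnt9a*, a ligand, rose from 23.5 to 38.1 CPM on average (log2FC 0.70, SE 0.10, adjusted *P* = 0.00572, edgeR), and the receptor *Fzd4* from 282 to 356 CPM (log2FC 0.34, SE 0.06, adjusted *P* = 0.0141, edgeR; lost without *Lrp2* sh1 replicate 2 (adjusted *P* = 0.0637)). With each library left out in turn, 1 to 3 genes of the list rose and 1 to 7 fell, the lowest being 1 and 1 without *Lrp2* sh1 replicate 2. In the IGF system, *Igfbp2*, *Pappa2* and *Igfbp4* fell and *Igf2r* rose, of 15 tested. The list had 6 falling members without ctrl sh replicate 1, and 2 or 3 in the other fits that left out a library. *Igf2r* (log2FC 0.29, SE 0.06, adjusted *P* = 0.0263, edgeR) was lost without ctrl sh replicate 3 or any one *Lrp2* sh1 library. *Pappa2*, a protease that releases IGFs from binding proteins, had 150.4, 194 and 180.2 CPM with ctrl sh, 86.4, 85.6 and 59.2 CPM with *Lrp2* sh1 and 197, 241 and 154 CPM without injection (log2FC −1.18, SE 0.14, adjusted *P* = 0.00205, edgeR). *Igfbp4*, a binding protein, fell from 1355 to 945 CPM on average (log2FC −0.52, SE 0.06, adjusted *P* = 0.00205, edgeR). *Igfbp2*, another, had 126, 106 and 125 CPM with ctrl sh, 51, 38.4 and 75.9 CPM with *Lrp2* sh1 and 48.9, 69.3 and 45.7 CPM without injection (log2FC −1.11, SE 0.19, adjusted *P* = 0.0122, edgeR; lost without *Lrp2* sh1 replicate 1 (adjusted *P* = 0.0615)), again with ctrl sh as the high group. In the Jak/Stat pathway, 2 of 28 genes rose and 2 fell, but none fell without ctrl sh replicate 2 or 3 or any one *Lrp2* sh1 library. *Lif*, a cytokine that protects photoreceptors, had 2.32, 3.2 and 4.97 CPM with ctrl sh, 10.2, 8.27 and 9.18 CPM with *Lrp2* sh1 and 2.72, 1.84 and 1.72 CPM without injection (log2FC 1.41, SE 0.24, adjusted *P* = 0.0119, edgeR; lost without *Lrp2* sh1 replicate 1 (adjusted *P* = 0.0548)). In the hedgehog pathway, *Kif7* alone fell of 16 genes (−0.44, adjusted *P* = 0.0295, edgeR), and it passed in 1 of the 6 fits (adjusted *P* 0.0313 to 0.126).

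Among the listed genes of lipid metabolism, the changes that passed were small. Genes outside those lists changed more, with *Lpl* (log2FC 1.02, adjusted *P* = 0.00167, edgeR) and *Mttp* (1.25, adjusted *P* = 0.00246, edgeR) higher and *Enpp2* (−2.36) lower. Of 25 genes of cholesterol synthesis and uptake, 3 (12%, against 2.28% of all genes) fell and none rose, among them *Sqle*, the squalene epoxidase, and *Hsd17b7*, with a median log2FC of −0.15. These falls were small and were lost when single libraries were left out. *Sqle* had 36.5, 33.1 and 29.3 CPM with ctrl sh and 24.2, 22.2 and 25.6 CPM with *Lrp2* sh1 (log2FC −0.46, SE 0.10, adjusted *P* = 0.0295, edgeR; passed in 2 of the 6 fits that left out a library, adjusted *P* 0.0325 to 0.123), and *Hsd17b7* 17.6, 15.6 and 16.3 and 11.1, 12.5 and 10.3 CPM (log2FC −0.54, SE 0.11, adjusted *P* = 0.021, edgeR; passed in 3 of the 6, adjusted *P* 0.0353 to 0.0891). *Srebf1*, which encodes the regulator of fatty acid synthesis, was firmer, with 159, 155 and 153 CPM with ctrl sh, 212, 220.4 and 238 CPM with *Lrp2* sh1 and 86.7, 119 and 105 CPM without injection (log2FC 0.52, SE 0.06, adjusted *P* = 0.00184, edgeR). *Acsl3*, which activates fatty acids, had 59.2, 61.8 and 62.2 and 109, 105 and 96.4 CPM with ctrl sh and *Lrp2* sh1 (log2FC 0.76, SE 0.06, adjusted *P* = 0.000374, edgeR). These were the 2 of 18 fatty acid genes (11.1%, against 3.06% of all genes) that rose, and 5 rose without ctrl sh replicate 1 and 4 without ctrl sh replicate 2. Among 18 genes of LXR and cholesterol efflux, *Srebf1* and *Cyp27a1* rose and *Apoe* and *Pltp* fell. *Cyp27a1*, *Apoe* and *Pltp* passed in no fit without ctrl sh replicate 3 or any one *Lrp2* sh1 library.

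Of the functions for which the RPE is known, the visual cycle had no member past the threshold among 13 tested, with a median log2FC of −0.27. The spread was wide. *Lrat*, the acyltransferase that stores retinol, had 313, 93 and 111 CPM with ctrl sh and 67.7, 149 and 65.7 CPM with *Lrp2* sh1, against 246, 746 and 867 CPM without injection (log2FC −0.87, SE 0.45, adjusted *P* = 0.325, edgeR). *Rgr* had 423, 31.9 and 33, 64.3, 249 and 90.5 and 617, 1758 and 2108 CPM in the same order (log2FC −0.27, SE 0.88, adjusted *P* = 0.906, edgeR). Ctrl sh replicate 1 and *Lrp2* sh1 replicate 2 were the highest of their groups for both genes and for *Rpe65*, and without ctrl sh replicate 1, 4 genes of the list passed as higher. Against uninjected libraries, 7 of 12 tested visual cycle genes were lower with *Lrp2* sh1 (background 12%), with a median log2FC of −1.74. None of those tested was lower with ctrl sh (background 3.37%), where the median was −1.19. *Mitf*, a master regulator of pigment cells, had 242, 247 and 229.9 CPM with ctrl sh, 162, 168 and 164 CPM with *Lrp2* sh1 and 136, 188 and 243 CPM without injection (log2FC −0.54, SE 0.06, adjusted *P* = 0.000969, edgeR). It was the firmer of the 2 of 16 RPE markers that fell, beside *Clic6*, and it did not pass with all 18 libraries in one fit.

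Of 23 RPE channels and transporters, 5 fell (background 2.28%) and none rose. *Aqp1*, a water channel, had 271, 277 and 259.7 CPM with ctrl sh, 198, 194 and 181 CPM with *Lrp2* sh1 and 336, 333 and 287 CPM without injection (log2FC −0.49, SE 0.06, adjusted *P* = 0.00205, edgeR). *Atp1b1*, the beta subunit of the sodium pump, had 360.5, 307 and 390.2 CPM with ctrl sh, 213, 197 and 220.4 CPM with *Lrp2* sh1 and 64.5, 165 and 164 CPM without injection (log2FC −0.75, SE 0.09, adjusted *P* = 0.00198, edgeR). *Clic6*, *Slc2a1* and *Cacna1d* passed in 2, 2 and 1 of the 6 fits that left out a library (adjusted *P* 0.0193 to 0.147, 0.0102 to 0.148 and 0.0425 to 0.117). The list had 6 falling members without ctrl sh replicate 1, and 2 without ctrl sh replicate 3 or any one *Lrp2* sh1 library. Of 23 junction and epithelial genes, 3 fell (background 2.28%) and none rose. *Ocln*, the tight junction protein occludin, had 32.3, 40 and 43.2 CPM with ctrl sh, 18.2, 18.4 and 18.3 CPM with *Lrp2* sh1 and 11.2, 15.7 and 13.8 CPM without injection (log2FC −1.07, SE 0.11, adjusted *P* = 0.0012, edgeR), and the claudin gene *Cldn1* 170.1, 126 and 154, 81.5, 83.2 and 75.9 and 72.8, 173 and 189 CPM (log2FC −0.90, SE 0.10, adjusted *P* = 0.00131, edgeR). Against uninjected libraries *Ocln* was thus slightly higher (log2FC 0.42, SE 0.13, adjusted *P* = 0.0445, edgeR) and *Cldn1* lower (−0.87, 0.28 and 0.0467, respectively). *Tyro3*, a receptor for outer segments, was the only one of 14 phagocytosis genes that passed, with 86, 71.6 and 79.9 CPM with ctrl sh, 51.2, 51.8 and 57.1 CPM with *Lrp2* sh1 and 28.2, 50.2 and 41.3 CPM without injection (log2FC −0.57, SE 0.08, adjusted *P* = 0.0036, edgeR). *Atp1b1*, *Cldn1* and *Tyro3* did not pass with all 18 libraries in one fit.

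In the other lists 0 to 3 members passed in either direction, against a background of 3.06% higher and 2.28% lower over all genes, and the counts changed with single libraries. Of 42 oxidative phosphorylation genes 2 rose (4.76%), of 20 glycolysis genes 3 fell (15%) although the median log2FC was 0.07, of 28 immediate early genes 1 fell and of 29 interferon genes 1 rose and 1 fell (3.45% each). Of 16 genes of retinoic acid metabolism and of 20 Eph receptors and ephrins 1 rose and 1 fell each, and of 16 complement genes *Cd55*, which restrains complement, rose (log2FC 0.80, SE 0.13, adjusted *P* = 0.00803, edgeR). Without ctrl sh replicate 1, 6 immediate early genes and 3 clock genes fell, and 4 RPE markers passed as higher. Without *Lrp2* sh1 replicate 1, no glycolysis gene fell. None of 33 collagen and scleral matrix genes passed (median log2FC 0.11), and of 18 laminin and basement membrane genes 1 rose and 2 fell. Markers of other cells of the eye moved as little. None of 13 rod, 5 cone, 8 inner retina, 10 melanocyte and Schwann cell, 10 muscle or 8 ciliary body, iris and lens markers passed, and 1 of 14 pigment synthesis, 1 of 14 endothelial, 1 of 16 fibroblast, 1 of 17 macrophage and 1 of 11 blood markers fell. Of 11 Mueller glia and astrocyte markers, 1 rose and 2 fell. Rod markers summed to 485, 514 and 463 CPM with ctrl sh and 452, 459 and 513 CPM with *Lrp2* sh1. Blood markers summed to 659, 824 and 722 and 613, 613 and 490.1 CPM, macrophage markers to 579.9, 615 and 602 and 528, 539.9 and 564 CPM, and endothelial markers to 3884, 3927 and 3749 and 3591, 3658 and 3366 CPM, each lower in all *Lrp2* sh1 libraries. Their part in the changes above was not tested.

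The direction of each called gene was then checked against the uninjected libraries, which are shared by both contrasts below. The *Lrp2* sh1 and ctrl sh libraries of these contrasts are also the ones by which the 177 genes were called, so a side of uninjected is in part fixed by that choice, and the shares over all genes in parentheses are a description, not the value that no change would give. Of the 80 genes higher with *Lrp2* sh1 than with ctrl sh, 74 were also above uninjected by the sign of the log2FC, leaving aside the 3 not tested. At an adjusted *P* under 0.05, 59 of the 80 were higher with *Lrp2* sh1 than in uninjected libraries (background 12.4%), none was lower, 18 did not pass and 3 were not tested. Ctrl sh was lower than uninjected for 3 of the 80 (background 3.37%). Of the 97 lower genes, 70 were below uninjected by the sign of the log2FC, leaving aside the 13 not tested. At the threshold, 52 were lower than uninjected (background 12%), 9 were higher, 23 did not pass and 13 were not tested. Ctrl sh was itself higher than uninjected for 30 of the 97 (background 3.13%). For 20 of these 30, *Lrp2* sh1 either did not pass against uninjected in any direction or was too low to be tested. Those not tested, which show no absence of a difference, included *Capn11*, *Nol4*, *Hs6st3* and *Esr2*. *Gabrg1*, *Gabra2*, *Htr2c*, *Ocln* and *Mag* were among the 9 that stayed above uninjected, chosen here after their values were seen. Leaving out each uninjected library in turn gave 61 to 63 of the 80 and 39 to 55 of the 97 on the same side past the threshold, and 22 to 30 of the 97 with ctrl sh above uninjected. Over all genes and with the limit on log2FC, 6.58% were called between *Lrp2* sh1 and uninjected libraries, 2.39% between ctrl sh and uninjected libraries and 5.13% between *Lrp2* sh2 and *Lrp2* sh1. Immediate early genes, which answer acute stimuli, set both hairpin groups apart from the uninjected libraries. Of 28, 25 were lower with *Lrp2* sh1 (background 12%) and 19 with ctrl sh (background 3.37%). The plot of both contrasts shows the falls on either side of the horizontal zero line.

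**Figure D5:**
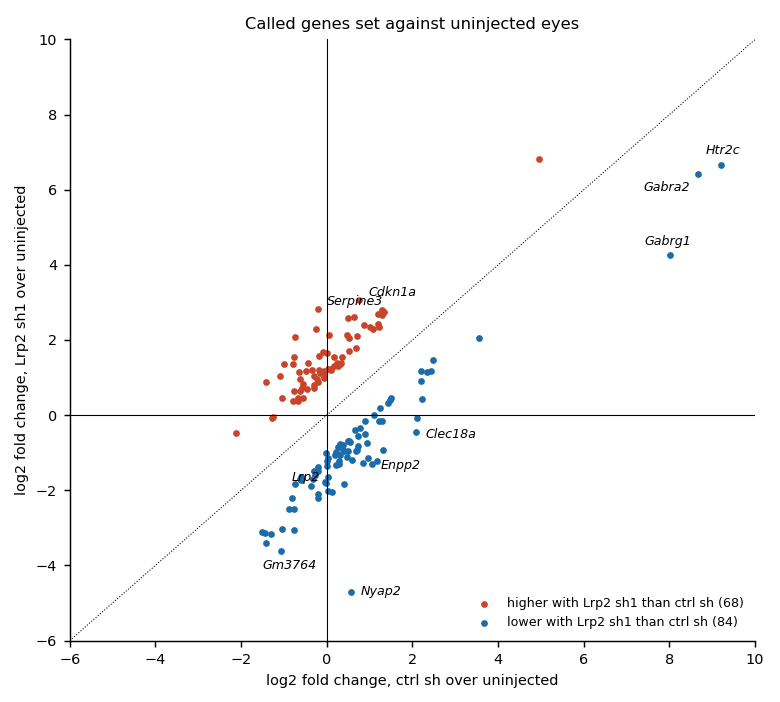
Each point is a called gene, with the log2 fold change of ctrl sh over uninjected on the x axis and that of *Lrp2* sh1 over uninjected on the y axis, for the 68 higher (red) and 84 lower (blue) genes tested in both. The contrasts share the uninjected libraries, points lie above or below the dotted line of equality by how they were chosen, and *Htr2c*, *Gabra2* and *Gabrg1* sit far to the right, where ctrl sh exceeds uninjected and the position depends on 1 to 3 uninjected counts.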

How the data were processed

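Gene counts were the values the authors deposited, as whole reads for 52636 genes in 18 libraries. RNA was depleted of ribosomal RNA, and directional libraries were aligned by the authors with STAR to GRCm38. Which gene models were used, and whether reads were assigned by strand, is not given in the sources used here. The counts were tested with edgeR (version 4.0.16 in R 4.3.3) by its quasi-likelihood test, on the 6 libraries of each comparison, after filterByExpr and TMM scaling, with Benjamini-Hochberg adjustment over all genes tested. A gene was called at an adjusted *P* below 0.05 with a log2FC beyond 1 in either direction, whereas members of gene lists were counted at the adjusted *P* alone. SE is the absolute log2FC divided by the square root of the F statistic. Summed counts per library were 8921885 to 13696934, and floors and ratios of counts cover counting error only. No column of the table was left out as belonging to no sample.

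The text names *Lrp2*, *Srebf2*, all BMP ligands and targets, the 10 largest rises and 10 largest falls that were called without overlap between the groups at a mean log2 CPM of 1 or more, and up to 4 members per list and direction with the smallest adjusted *P*. The members and the lists were chosen with earlier results of these data known. Other genes, the gene families and every list member named below the threshold were chosen after their values were seen. Gene positions and exon overlaps came from the GRCm38 annotation, and promoter sequences from RefSeq (GRCm38.p6). The fit was tested on simulated data. Other settings tried were no filter or a stricter one on low counts, a fit of all 18 libraries together, a block for the replicate number, DESeq2 (1.42.0) or its size factors alone, no limit on log2FC, and leaving out each library in turn. Libraries of a group were separate mice, and the least different pair of replicates in the main comparison still differed by 5.05 times the sampling noise (chi-square per degree of freedom). A few list members that are counted in the lists are not reported here by name.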

Additional observations from a re-analysis of the deposited data

Results flagged for a closer look

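For 6 of the 20 largest changes, the mean with the second hairpin against the same gene, *Lrp2* sh2, lay on the other side of ctrl sh. The difference between the hairpins was tested directly (edgeR, 3 libraries each), without ctrl sh. *Serpine3* averaged 32.9 CPM with ctrl sh, 268 CPM with *Lrp2* sh1 and 18.3 CPM with *Lrp2* sh2, with a log2FC of *Lrp2* sh2 over *Lrp2* sh1 of −3.87 (SE 0.42, adjusted *P* = 0.000161, edgeR). *Chrnb4* averaged 6.46, 31.9 and 2.52 CPM in that order (−3.65, SE 0.13, adjusted *P* = 4.36e-07, edgeR). *Epha8* averaged 0.805, 5.97 and 0.354 CPM (−4.02, adjusted *P* = 8.28e-05, edgeR). *Pcdh8* averaged 1.79, 7.81 and 0.655 CPM (−3.54, adjusted *P* = 8.27e-05, edgeR). *Tpbgl* averaged 3.44, 15.2 and 2.22 CPM (−2.76, adjusted *P* = 6.02e-05, edgeR). *Esr2* went the other way, at 3.32, 0.499 and 4.96 CPM (3.30, adjusted *P* = 0.00015, edgeR). *Lrp2* sh2 was thus below ctrl sh on average for the 5 genes that *Lrp2* sh1 raised and above it for the gene that *Lrp2* sh1 lowered. *Lrp2* sh2 was not tested against ctrl sh, and its libraries overlapped those of ctrl sh for each of these genes except *Chrnb4*. Replicates 2 and 3 of *Lrp2* sh2 had counts on Y-linked genes and the *Lrp2* sh1 libraries almost none, and the part of this in the differences was not tested.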

How the results depend on the processing

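Between *Lrp2* sh1 and ctrl sh, 177 genes were called. The count was 160 with DESeq2, 177 with its size factors, 262 with no filter on low counts, 138 with at least 10 counts in every library, 171 with all 18 libraries in one fit and 110 to 221 without 1 library. It was 949 with no limit on log2FC. Of the 80 higher genes the number was 122 with no filter, and of the 97 lower genes it was 46, 54 and 50 without *Lrp2* sh1 replicates 1, 2 and 3. The other counts were 1171 for *Lrp2* sh1 against uninjected (4354 with no limit on log2FC, 789 to 1297 without 1 library), 426 for ctrl sh against uninjected (687 with no filter, 746 with all 18 libraries in one fit, 1157 with no limit, 79 to 423 without 1 library) and 922 for *Lrp2* sh2 against *Lrp2* sh1 (613 with at least 10 counts in every library, 4029 with no limit, 759 to 1037 without 1 library). For ctrl sh against uninjected, the low values were 79 and 153 without ctrl sh replicates 2 and 3 and 175 without uninjected replicate 3. Same-numbered libraries of *Lrp2* sh1 and ctrl sh did not deviate together (correlations −0.072, −0.286 and −0.294), nor did those of ctrl sh and uninjected (−0.218, −0.124 and −0.130). Those of *Lrp2* sh1 and uninjected did so weakly (0.096, 0.137 and 0.222). Whether libraries of the same number shared a batch or litter was not tested. With the replicate block, the counts were 134 for *Lrp2* sh1 against ctrl sh and 131 for ctrl sh against uninjected. *Srebf2* changed sign, to 0.017 when ctrl sh replicate 1 and 0.039 when *Lrp2* sh1 replicate 1 was left out (−0.072 to 0.039 over the 6 such fits), and passed in none.

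Of the 122 genes named in the report or its lists that passed, 66 also passed without each library in turn. The call ended for 9 with DESeq2, for 40 with all 18 libraries in one fit, for 39 with the replicate block and for 1 with no filter. It ended for 8, 32 and 44 without ctrl sh replicates 1, 2 and 3 and for 52, 48 and 45 without *Lrp2* sh1 replicates 1, 2 and 3. The causes were not tested. Levels near 0.3 CPM rest on about 3 reads a library, so fold changes from such levels are imprecise.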

Other observations

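Levels with the second hairpin, *Lrp2* sh2, were set beside those of *Lrp2* sh1 for genes described above, chosen after their values were seen. *Lrp2* itself had 37.8, 34.5 and 43.9 CPM with *Lrp2* sh2, against 29.7, 42.8 and 38.2 CPM with *Lrp2* sh1 (log2FC of *Lrp2* sh2 over *Lrp2* sh1 0.08, SE 0.13, adjusted *P* = 0.728, edgeR). *Cdkn1a* had 248, 268 and 307 CPM with *Lrp2* sh2 (log2FC −0.56, SE 0.10, adjusted *P* = 0.00252, edgeR), and *Gdf15* had 15, 16 and 18.6 CPM (−0.63, SE 0.18, adjusted *P* = 0.0353, edgeR). *Gsta3* had 5.83, 6.37 and 10 CPM (−2.88, SE 0.17, adjusted *P* = 3.57e-06, edgeR). *Per1* had 107, 87.3 and 105 CPM (0.19, SE 0.09, adjusted *P* = 0.184, edgeR), and *Mt1* had 59, 37 and 45.6 CPM (−0.69, SE 0.14, adjusted *P* = 0.0059, edgeR). *Enpp2* had 163, 156 and 247 CPM (−0.55, SE 0.15, adjusted *P* = 0.0222, edgeR), *Nyap2* had 4.95, 4.11 and 2.09 CPM (2.27, SE 0.42, adjusted *P* = 0.00402, edgeR) and *Gabrg1* had 2.95, 2.85 and 4.02 CPM (0.60, SE 0.24, adjusted *P* = 0.108, edgeR). Of the other receptor genes, *Gabra2* had 2.48, 2.52 and 1.17 CPM (−0.90, SE 0.29, adjusted *P* = 0.0468, edgeR), *Htr2c* had 6.31, 7.46 and 7.37 CPM (0.63, SE 0.16, adjusted *P* = 0.019, edgeR) and *Chrm1* had 31.1, 29.3 and 36.6 CPM (3.56, SE 0.15, adjusted *P* = 6.72e-07, edgeR). Compared with ctrl sh, *Cdkn1a* and *Gdf15* were above every ctrl sh library with both hairpins, and *Lrp2*, *Per1*, *Mt1*, *Enpp2*, *Nyap2*, *Gabrg1*, *Gabra2* and *Htr2c* were below every one with both, whereas *Chrm1* with *Lrp2* sh2 was above every ctrl sh library and *Gsta3* with *Lrp2* sh2 lay within or below the range of ctrl sh. The lysosome and NRF2 lists summed to 5849 to 6508 and 1635 to 1858 CPM with *Lrp2* sh2. Both lay below every ctrl sh library (6547 to 7093 and 2133 to 2172 CPM). The p53 list summed to 1793 to 1974 CPM, above ctrl sh (1053 to 1486). The glucocorticoid list summed to 1930 to 2175 CPM, below ctrl sh (2980 to 3800). *Tubb4b* averaged 97.6 CPM with *Lrp2* sh2 and 105 CPM with ctrl sh. The 16 RPE markers summed to 757, 787 and 1194 CPM with *Lrp2* sh2, less than in any *Lrp2* sh1 library, and their part in these differences was not tested.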
